A study of Rattus norvegicus with 12 samples.

Results

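Cytochrome P450 enzymes are haem proteins that insert an oxygen atom into drugs, solvents, fatty acids, sterols, retinoids and steroids, using electrons from NADPH. Most microsomal P450s receive those electrons from P450 oxidoreductase (gene Por). Lung is known for a small set of them, carried largely by club cells of the airway and by alveolar epithelium, which can turn inhaled or blood-borne chemicals into reactive products. The P450 genes were taken as all lines of the deposited gene table whose name has the form Cyp, a family number, a subfamily letter and a member number. That rule found 72 lines with 71 names (Cyp4a2 stands on a pair of lines), out of 23096 genes, in 16 families. Cyp51, Cyp2c6v1 and Cyp3a23-3a1 are P450 genes whose names lie outside it.

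The 72 genes were measured by RNA sequencing of lung with its bronchi from 6 rats given 2,3-butanedione (diacetyl, DA) and 6 control rats. DA is a butter flavouring chemical whose vapour is linked to bronchiolitis obliterans, a scarring closure of small airways. It was instilled into the trachea at 125 mg/kg once a day for 7 days, and the lungs were collected 24 h later. Controls received sterile distilled water by the same route, and their schedule is not described further. All 12 animals are labelled male Sprague Dawley rats, an outbred strain, aged 8 weeks and weighing 300 g, with 1 week of adaptation.

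Each library held between 13723207 and 16271842 counted reads. The labels were not met in full: reads of the Y-linked genes Kdm5d, Eif2s3y and Uty were present in DA replicates 1 to 4 and control replicates 1 and 2, at 2185 to 2881 reads in sum. They were 0 in DA replicates 5 and 6 and control replicates 3 to 6. Results are therefore given also with the presence of Y-linked reads as a term and within each kind of library. Lung markers were present in all libraries: the 8 alveolar type 2 genes summed to between 4669 and 11281 FPKM (reads per kilobase of gene, scaled to library total) in DA lungs and between 9081 and 11253 in control lungs. The 9 hepatocyte markers, among them Alb, summed to at most 2.33 FPKM in DA lungs and 1.81 in control lungs, and none passed the count filter. The lowest type 2 sum, the lowest sum of 7 alveolar type 1 genes (500.1 FPKM) and the lowest sum of 6 endothelial genes (129.5 FPKM) were all those of DA replicate 4.

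The 250 bases before the RefSeq start site are printed from build GRCr8 for some P450 genes. These are the near-identical Cyp2b pair, some of the genes that fell, and Cyp1b1. RefSeq start regions matched 58 of the 71 names. For Cyp2b1 (chr1:90645869-90646118, plus strand) and Cyp2b2 (chr1:90722031-90722280, plus strand), capitals mark the bases that differ where the windows align. The windows are offset by 17 bases, and 225 of the 233 shared bases are identical (96.6%). Both hold GCGTG, described below, once, at 86 bases before the start in Cyp2b1 and 103 in Cyp2b2.
Cyp2b1: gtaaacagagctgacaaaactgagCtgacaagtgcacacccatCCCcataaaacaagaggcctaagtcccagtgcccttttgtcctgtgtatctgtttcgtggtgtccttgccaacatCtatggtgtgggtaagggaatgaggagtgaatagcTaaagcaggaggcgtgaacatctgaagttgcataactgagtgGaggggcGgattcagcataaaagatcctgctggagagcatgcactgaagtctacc
Cyp2b2: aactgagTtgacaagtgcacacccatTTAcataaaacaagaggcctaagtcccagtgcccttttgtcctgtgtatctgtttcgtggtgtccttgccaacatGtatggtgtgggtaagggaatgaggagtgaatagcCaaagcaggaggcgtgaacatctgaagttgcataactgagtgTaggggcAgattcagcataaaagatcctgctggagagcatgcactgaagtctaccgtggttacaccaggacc

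For 3 of the 4 genes that fell (Cyp2e1, Cyp4b1 and Cyp2d4), the same window is shown with TATAAA, the TATA box core, in capitals on either strand. Cyp2e1 (chr1:205269717-205269966, plus strand) holds it once, beginning 49 bases before the start. Cyp4b1 (chr5:134393117-134393366, minus strand) and the CT-rich Cyp2d4 window (chr7:115771822-115772071, minus strand) hold none. Cyp4f18, which also fell, had a RefSeq match too, but its start is not printed.
Cyp2e1: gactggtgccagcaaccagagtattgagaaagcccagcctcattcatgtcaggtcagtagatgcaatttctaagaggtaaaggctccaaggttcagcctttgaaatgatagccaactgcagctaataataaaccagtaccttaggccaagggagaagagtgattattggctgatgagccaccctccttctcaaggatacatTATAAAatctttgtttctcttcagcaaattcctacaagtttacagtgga
Cyp4b1: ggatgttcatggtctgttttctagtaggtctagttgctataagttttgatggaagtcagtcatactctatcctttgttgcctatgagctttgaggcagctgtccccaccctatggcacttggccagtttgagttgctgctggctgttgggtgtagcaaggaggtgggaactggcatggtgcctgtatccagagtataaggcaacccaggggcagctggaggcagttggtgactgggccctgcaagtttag
Cyp2d4: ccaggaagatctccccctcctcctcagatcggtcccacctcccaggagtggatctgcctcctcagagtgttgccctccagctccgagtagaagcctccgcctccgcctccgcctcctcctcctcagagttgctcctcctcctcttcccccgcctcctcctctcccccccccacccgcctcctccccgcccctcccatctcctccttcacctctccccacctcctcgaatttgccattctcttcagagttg

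Cyp1b1 (chr6:21094315-21094564, plus strand) is a textbook target of the aryl hydrocarbon receptor (AHR), and its window is shown with GCGTG, the core of that receptor's response element, in capitals on either strand (CACGC is the same motif read from the other strand). It holds the core at 81 and at 20 bases before the start.
Cyp1b1: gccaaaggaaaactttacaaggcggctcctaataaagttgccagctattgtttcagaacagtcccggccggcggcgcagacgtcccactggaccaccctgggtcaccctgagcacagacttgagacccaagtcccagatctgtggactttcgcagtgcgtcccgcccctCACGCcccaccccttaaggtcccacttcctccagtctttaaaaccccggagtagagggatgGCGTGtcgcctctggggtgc
Across all 33469 RefSeq start regions, 25.9% held GCGTG within these 250 bases and 12.9% held TATAAA, both strands searched. Of 62 start regions of P450 genes, 29.0% held GCGTG and 27.4% held TATAAA. A match of letters is a description only and shows no binding.

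Many P450 genes had too few counted reads in lung to compare. Of the 72 lines, 31 passed the count filter and were tested, 30 had some reads but stayed below it, and 11 had 0 reads in all 12 libraries. These last were Cyp17a1, Cyp24a1, Cyp2a2, Cyp2b12, Cyp2b15, Cyp2b3, Cyp2c13, Cyp2c24, Cyp2j16 and both lines of Cyp4a2. A count of 0 allows up to 3 reads in a library, which is 0.184 to 0.219 CPM (counts scaled to library total), counting error only. How reads that match more than a single gene were counted is not given in the sources used here. A 0 for close copies, such as the pair of Cyp4a2 lines, therefore need not mean absence from lung.

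The family split was uneven. The CYP2 family, the largest group of drug-metabolising P450s, had 32 lines, of which 14 were tested, 11 were below the filter and 7 were undetected. The CYP4 family of fatty acid hydroxylases had 16 lines, with 8 tested, 6 below the filter and 2 undetected. The steroid-synthesis genes Cyp11a1, Cyp11b1, Cyp11b2, Cyp17a1, Cyp19a1 and Cyp21a1 were all below the filter or undetected. Cyp7a1 and Cyp8b1, which act in bile acid synthesis, were below the filter, while the sterol genes Cyp27a1, Cyp7b1 and Cyp39a1 were tested. None of the 6 lines of the liver-rich CYP2C cluster from Cyp2c11 to Cyp2c22 was tested, while Cyp2c23, which lies apart from it and makes epoxides of arachidonic acid in rat kidney, was.

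**Figure D1:**
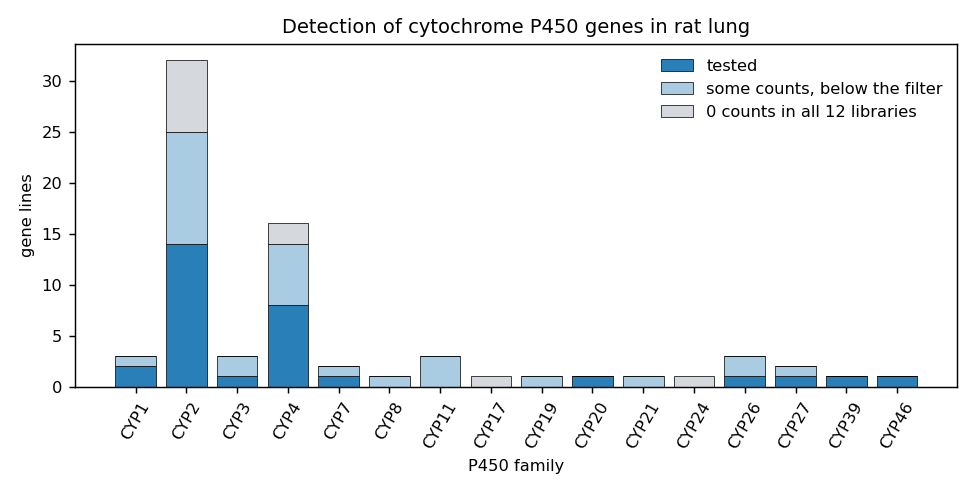
Number of P450 gene lines per family (vertical axis) in rat lung, stacked by whether they were tested, had reads below the count filter or had 0 counts in all 12 libraries. CYP2 (32 lines) and CYP4 (16 lines) hold 22 of the 31 tested lines.

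Below the filter no library had more than 30 reads of any member. In 10 of the 30 the highest library had 3 reads or fewer (Cyp2w1, Cyp4x1, Cyp4f40, Cyp4f1, Cyp3a18, Cyp2a1, Cyp7a1, Cyp2c7, Cyp11b1 and Cyp2b21). The other 20 were Cyp2ab1, Cyp27b1, Cyp26a1, Cyp26c1, Cyp3a62, Cyp21a1, Cyp19a1, Cyp2c11, Cyp2c22, Cyp2d5, Cyp11a1, Cyp4f4, Cyp2d2, Cyp2c12, Cyp11b2, Cyp1a2, Cyp2g1, Cyp8b1, Cyp4a3 and Cyp4a8. Cyp27b1, which makes active vitamin D, summed to 59 reads over the DA libraries and 69 over the controls. Cyp26a1, which degrades retinoic acid, summed to 41 reads over the DA libraries and 53 over the controls. Cyp2c12, known as the female form in rat liver, had 0 reads in all DA libraries, 2 in control replicate 4 and 6 in control replicate 5. Those control libraries lacked Y-linked reads, but so did DA replicates 5 and 6 and control replicates 3 and 6, which had 0 reads of Cyp2c12. Cyp2c11, the male form in rat liver, had at most 6 reads in a DA library and 3 in a control library.

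Levels per length were set by a few genes. Summed over the 72 lines, P450 genes reached 229.6 to 611 FPKM in DA lungs and 547 to 749 FPKM in control lungs, so the groups overlapped. DA replicate 4 was lowest and control replicate 3 highest. Cyp2b1 and Cyp4b1 together made 42.4% to 68.6% of that sum in DA lungs and 63.1% to 75.1% in control lungs. By mean FPKM over the 12 libraries, the order of the first 10 was Cyp2b1 (238), Cyp4b1 (133), Cyp4v3 (46.2), Cyp2f4 (25.6), Cyp2s1 (17.3), Cyp2e1 (12.3), Cyp27a1 (11.7), Cyp4f6 (11.3), Cyp26b1 (7.41) and Cyp2d4 (6.37). The order pools both groups. In DA lungs Cyp2e1 averaged 3.00 FPKM, below Cyp2f4 (32.0) and Cyp2s1 (16.26), and in control lungs it averaged 21.5 FPKM, above Cyp2f4 (19.1) and Cyp2s1 (18.3). Neighbours from Cyp2e1 to Cyp26b1 differed by less than their spread between libraries. In all, 26 lines averaged at least 1 FPKM.

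Of the 31 tested members, 4 were called lower in DA lungs and 0 higher. Cyp2e1, Cyp4b1, Cyp2d4 and Cyp4f18 fell, and the other 27 tested members did not pass the test (edgeR's quasi-likelihood test, Benjamini-Hochberg adjusted p under 0.05). The 4 are 12.9% of the 31 tested members, and 7.51% of all 14517 tested genes were lower by the same rule. For the opposite direction the count was 0 among the 31 members, and 8.45% of all tested genes were higher. At an unadjusted p under 0.05, 6 members were lower (background 14.9%) and 2 were higher, Cyp2b2 and Cyp7b1 (background 18.7%). DESeq2 (background 11.3% lower, 13% higher) called Cyp4v3 as well and 0 members higher, but gave no adjusted p for Cyp2b2. limma on log2(FPKM + 0.5) (5.75% lower, 5.44% higher) called the same 4 and 0 higher. With Y-linked reads as a model term, 2 members were lower (background 3.94%) and 0 higher (3.78%). Among libraries lacking Y-linked reads, 2 were lower (6.59%) and 1 higher (4.82%), and among those carrying them 0 of 15007 genes were called. The median log2 fold change was -0.12 over the 31 members and 0.03 over all tested genes, and 18 of the 31 were below 0, against 46.7% of all tested genes. In whole lung, fewer cells of a type and less RNA per cell cannot be told apart.

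**Figure D2:**
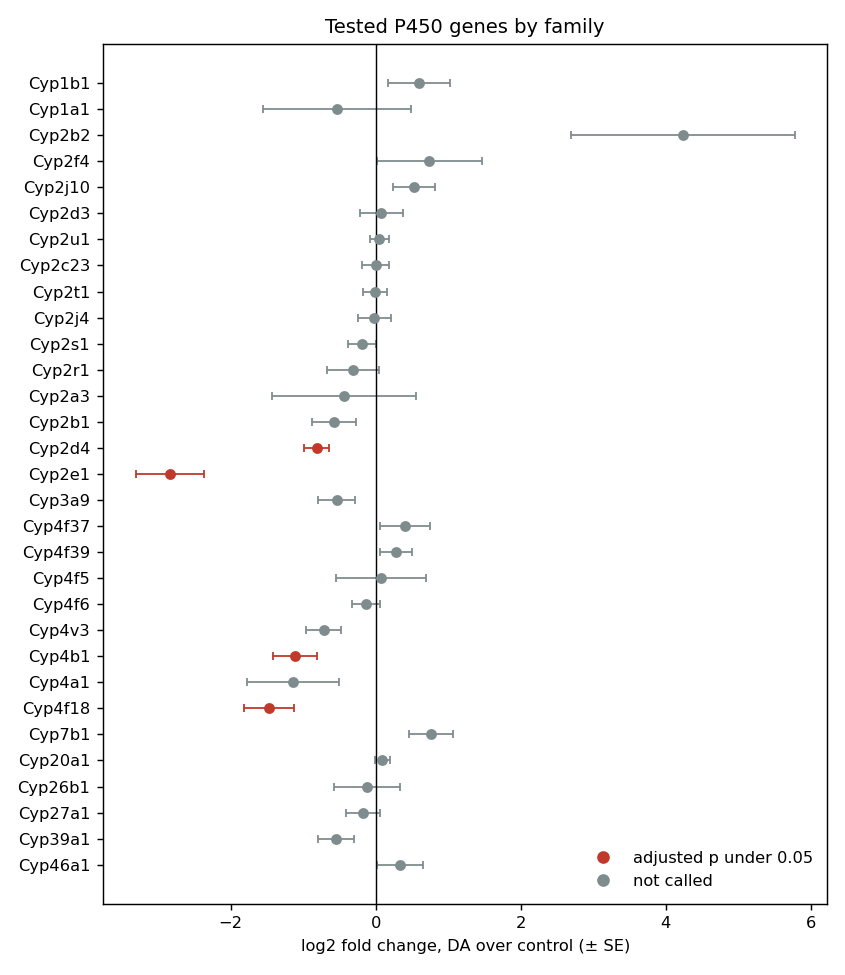
Log2 fold change of DA over control (horizontal axis, bars are 1 SE, n = 6 rats per group) for the 31 tested P450 genes, ordered by family. The 4 red genes passed the test, with Cyp2e1 lowest at -2.84. The widest bar is that of Cyp2b2.

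Cyp2e1 (ENSRNOG00000012458), which oxidises ethanol, acetone and other small solvents, showed the largest fall among the tested members. Its levels in DA lungs were 0.954, 5.09, 4.73, 0.732, 4.38 and 2.10 FPKM in replicates 1 to 6. Control lungs had 20.5, 11.6, 31.9, 23.5, 22.8 and 18.8 FPKM. The groups did not overlap, and the highest DA library was below the lowest control library, control replicate 2. On average DA lungs had 3.00 ± 1.97 FPKM and control lungs 21.5 ± 6.62 FPKM (SD, n = 6 each), a log2 fold change of -2.84 ± 0.47 (SE; edgeR adjusted p = 0.00445). The call held without each single library, at log2 fold changes of -3.08 to -2.64. A fit with a term for Y-linked reads put Cyp2e1 at -2.68 (adjusted p = 0.013). Among the 6 libraries lacking Y-linked reads it was at -2.91 (adjusted p = 0.00883). Among the 6 carrying them it was at -2.47 (adjusted p = 0.501), a fit of 4 DA against 2 control libraries.

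Cyp4b1 (ENSRNOG00000055078), a lung-rich enzyme that hydroxylates fatty acids and activates plant toxins such as 4-ipomeanol, was the second most abundant member. DA lungs had 58.6, 101.9, 104.7, 30.8, 139.2 and 69.2 FPKM. Control lungs had 126.8, 150.5, 208.9, 203.2, 239.5 and 163 FPKM. Only DA replicate 5 reached into the control range, above control replicate 1. Means were 84.1 ± 38.7 FPKM in DA lungs and 182 ± 42.1 FPKM in control lungs, a log2 fold change of -1.12 ± 0.31 (adjusted p = 0.0295). Omitting DA replicate 1 (adjusted p = 0.0665) or 6 (0.0563) ended the call, as did omitting control replicate 3 (0.0614), 4 (0.0614) or 5 (0.0615). The Y-linked term gave -0.93 (adjusted p = 0.0744), libraries lacking Y-linked reads gave -0.98 (adjusted p = 0.0565) and those carrying them gave -0.90 (adjusted p = 0.573).

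Cyp2d4 (ENSRNOG00000032261), of the drug-metabolising CYP2D subfamily and known as the brain form in rat, had 3.52, 5.82, 4.69, 4.01, 5.34 and 4.44 FPKM in DA lungs. Control lungs had 9.23, 7.44, 11.3, 7.23, 7.05 and 6.32 FPKM. Here too the groups did not overlap. Cyp2e1 and Cyp2d4 were the only tested members whose DA libraries all lay below all control libraries, a pattern that 2.66% of all tested genes showed. Cyp2d4 had a log2 fold change of -0.81 ± 0.17 (adjusted p = 0.0119), and of -0.79 beside the Y-linked term (adjusted p = 0.0303). It was not called among libraries lacking Y-linked reads (-0.70, adjusted p = 0.12) or carrying them (-0.90, adjusted p = 0.501). Cyp2d3, of the same gene cluster, was at 0.08 ± 0.30 (adjusted p = 0.884), with 0.996 FPKM in DA replicate 4 and 0.263 to 0.393 in the other DA lungs, against 0.315 to 0.503 in control lungs. Without DA replicate 4 it was at -0.30 (adjusted p = 0.279). Reads shared between CYP2D copies could have been split in counting.

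Cyp4f18 (ENSRNOG00000015751), whose mouse counterpart inactivates the neutrophil attractant leukotriene B4, had 0.946, 1.13, 1.99, 0.722, 1.02 and 0.907 FPKM in DA lungs. Control lungs had 1.80, 1.25, 3.22, 4.73, 4.49 and 3.14 FPKM. Control replicates 1 and 2 lay within the DA range, and control replicates 3 to 6 lay above it. The log2 fold change was -1.48 ± 0.34 (adjusted p = 0.0167). Beside the Y-linked term it was -1.17 (adjusted p = 0.0805). Libraries lacking Y-linked reads gave -2.00 (adjusted p = 0.00927), and those carrying them gave -0.35 (adjusted p = 0.821).

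Some neutrophil markers fell too. Of 9 markers, all tested, 3 fell (Cxcr2, Csf3r and Fpr1) and 0 rose; Cxcr1 was at 0.45 (adjusted p = 0.489). The list had a median log2 fold change of -1.44, against 0.03 over all tested genes. By the same test 7.51% of all tested genes were lower and 8.45% higher. This marker list was chosen after the values of Cyp4f18 had been seen. Its summed level was 407 to 958 FPKM in DA lungs and 292 to 2659 FPKM in control lungs, with none of the 9 at 0. Csf3r, the G-CSF receptor gene of neutrophils, had 4.54 to 12.9 FPKM in DA lungs, 9.43 in control replicate 2, 17.2 in control replicate 1 and 29.4 to 49.1 in control replicates 3 to 6. The lowest control library was replicate 2 for Cyp4f18, Csf3r and the marker sum alike. The part of neutrophil numbers in the fall of Cyp4f18 was not tested.

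**Figure D3:**
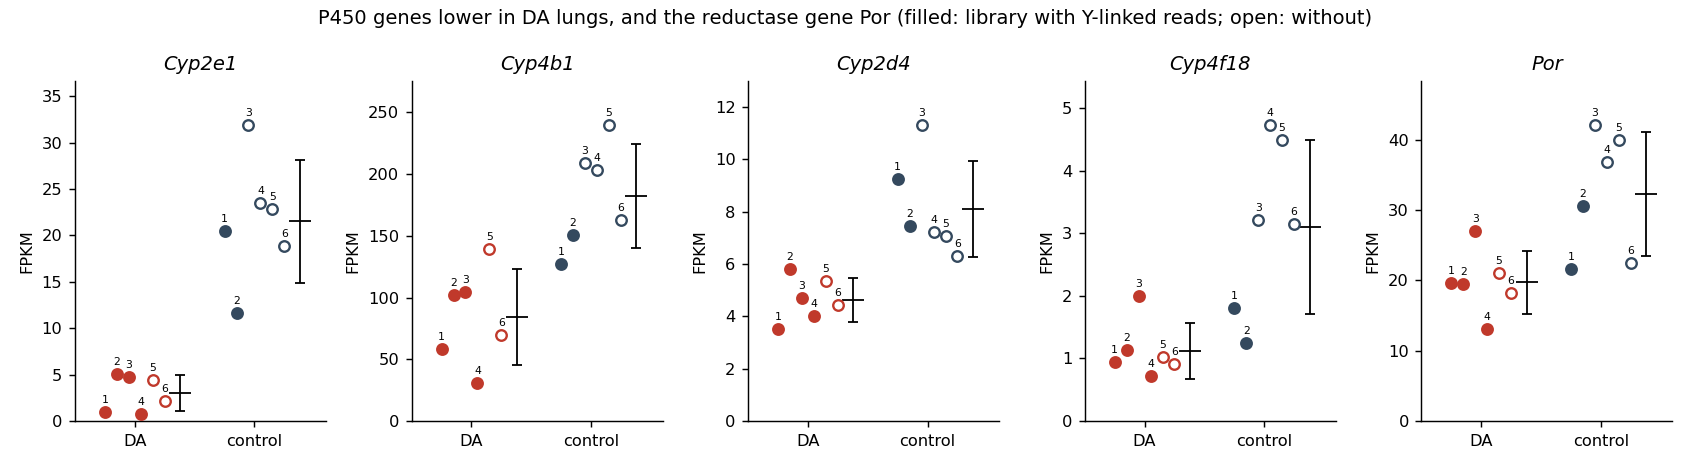
FPKM per library (vertical axes, from 0) in DA lungs and control lungs for the 4 P450 genes that fell and for Por. Points are rats numbered by replicate, filled where the library held Y-linked reads and open where it did not, and bars are mean ± SD (n = 6 per group). For Cyp2e1 and Cyp2d4 the groups are apart, while for Cyp4f18 control replicates 1 and 2 sit among the DA points.

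Within the DA group the fall was not even. DA replicate 4 was the lowest DA library for 3 of the 4 genes (Cyp2e1, Cyp4b1 and Cyp4f18), and DA replicate 1 for Cyp2d4. DA replicate 4 also had the lowest sums of alveolar and endothelial markers given above. Without it, the same 4 genes were called lower (background 10%). With all libraries kept, as for the marker lists that follow, 8.45% of all tested genes were higher and 7.51% lower. In DA lungs 4 of 6 fibroblast markers rose and 1 fell, Pdgfra, with 12.7 FPKM on average in DA lungs and 25.9 in control lungs (log2 fold change -1.04, adjusted p = 0.00883). Of 5 smooth muscle markers 4 rose. Of 7 tested ciliated cell markers 2 rose (Tekt2 and Ccdc39; median 1.09) and 0 fell. Of 5 tested alveolar macrophage markers 2 fell (Siglec5 and Mrc1; median -0.63) and 0 rose. None of 8 tested type 2 and 0 of 6 tested type 1 markers were called, and Tek alone fell among 6 endothelial ones. All 3 tested cardiac markers rose (Actc1, Tnnt2 and Tnni3). The summed level of the 6 listed was 207 FPKM in DA replicate 4 and 11.5 to 75.4 FPKM in the other DA lungs. Control lungs had 3.59 to 8.27 FPKM. Actc1 had 9.79 to 74.2 FPKM in DA lungs and 3.13 to 7.01 in control lungs. Tnnt2 had 15.6 FPKM in DA replicate 4, 0.202 to 0.883 in the other DA lungs and 0.0924 to 0.204 in control lungs. Tnni3 had 46.1 FPKM in DA replicate 4, 0.444 to 2.31 in the other DA lungs and 0.315 to 0.917 in control lungs. The part of tissue makeup in these falls was not tested.

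Other CYP4 genes varied. Cyp4v3, the rat counterpart of a human gene for a fatty acid hydroxylase of the retina, had 33.0, 38.0, 30.6, 20.1, 50.9 and 37.7 FPKM in DA lungs. Control lungs had 42.6, 35.2, 49.2, 73.9, 69.9 and 73.1 FPKM. Its log2 fold change, -0.71 ± 0.24, missed the threshold (adjusted p = 0.059), and passed it by DESeq2 (adjusted p = 0.0227), without DA replicate 5 (0.0385) and without control replicate 2 (0.0391). Cyp4a1, a target of the fatty acid receptor PPAR-alpha in liver, was at -1.14 ± 0.64 (adjusted p = 0.223), with at most 28 reads in a library. In the CYP4F group, Cyp4f6 was at -0.14 ± 0.20 (adjusted p = 0.668), with 7.45 to 15.4 FPKM in DA lungs and 7.69 to 14.5 in control lungs. Cyp4f39, Cyp4f37 and Cyp4f5 were at 0.28, 0.40 and 0.08 (adjusted p = 0.399, 0.441 and 0.948). For Cyp4f5 control replicate 3 had 0 reads, while the other 11 libraries had 94 to 224. That library's Cyp4f39 and Cyp4f37, on either side of Cyp4f5 in the RefSeq gene order, had 124 and 12 reads.

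The most abundant P450 gene, Cyp2b1, did not pass the test. It is a broad drug oxidase, induced by phenobarbital in rat liver and made constantly in rat lung. DA lungs had 227.9, 188.7, 168.4, 66.6, 259.8 and 229.2 FPKM. Control lungs had 396, 376, 337, 193, 211 and 201 FPKM. Control replicates 1 to 3 stood above every DA library, and control replicates 4 to 6 stood among them. Cyp2b1 had a log2 fold change of -0.58 ± 0.30 (adjusted p = 0.196), of 0.06 among libraries lacking Y-linked reads (adjusted p = 0.892) and of -1.24 among those carrying them (adjusted p = 0.501).

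Cyp2b2, its near-identical neighbour whose start region is printed above, was seen in bulk in a single rat. DA replicate 5 had 1611 reads (55.3 FPKM). The other DA libraries had 2 to 13 reads and control libraries 9 to 20. The log2 fold change of Cyp2b2, 4.23 ± 1.54, was not called (adjusted p = 0.0748). Without DA replicate 5 it was -1.04 (adjusted p = 0.139). It was called higher when DA replicate 4 was left out (adjusted p = 0.0466). It was also called among libraries lacking Y-linked reads (6.03, adjusted p = 0.0327), where DA replicate 5 is 1 of 2 DA libraries. Cyp2b1 in DA replicate 5 was at 259.8 FPKM, the highest of the DA libraries. How reads that match both genes were counted is not given in the sources used here, so their split is uncertain. Cyp2b2, Cyp1a1, Cyp1b1, Cyp2a3, Cyp2d3, Cyp4f5 and Cyp7b1 are shown by library because of their values, not by the rule that named the other genes.

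Both genes lie in the large CYP2 cluster that runs in RefSeq order from Cyp2s1 through the Cyp2b, Cyp2g and Cyp2a genes to Cyp2f4 and Cyp2t1. Of its 13 members, 6 were tested, 3 were below the filter, 4 were undetected and 0 were called. Cyp2s1, an epithelial P450, was at -0.19 ± 0.19 (adjusted p = 0.528), with 11.6 to 20.1 FPKM in DA lungs and 13.6 to 27.1 in control lungs. Cyp2t1 was at -0.01 (adjusted p = 0.975).

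Cyp2f4, which activates naphthalene in rodent club cells, ranged widely. DA lungs had 9.40, 11.6, 105, 29.2, 5.07 and 31.8 FPKM. Control lungs had 8.75, 19.5, 20.3, 10.3, 51.9 and 4.04 FPKM. DA replicate 3 and control replicate 5 stood highest in their groups, and the groups overlapped (log2 fold change 0.74 ± 0.73, adjusted p = 0.505). Cyp2a3, an airway and nasal P450 of the rat, had 0.677, 3.05, 9.16, 0.777, 0.197 and 6.56 FPKM in DA lungs and 2.95, 3.40, 1.49, 0.946, 18.9 and 0.253 FPKM in control lungs. The same 2 libraries were highest (log2 fold change -0.44 ± 0.99, adjusted p = 0.791).

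The airway marker Scgb3a1, a secretoglobin gene, was highest in the same libraries. It had 126 FPKM in DA replicate 3 and 5.10 to 26.0 in the other DA libraries, and 44.8 in control replicate 5 and 0.681 to 6.96 in the other controls. Over all tested genes 8.45% were higher and 7.51% lower. Of 5 tested club cell markers 2 rose (Scgb3a2 and Lypd2) and 0 fell, with a median log2 fold change of 1.73. DA replicate 3 was the highest DA library for each of these 5. Among control libraries, replicate 5 was highest for Scgb3a2 as well, but replicate 3 for Scgb1a1 and Lypd2 and replicate 2 for Aldh1a1. The summed level of the 6 listed markers was 3368 to 25689.9 FPKM in DA lungs and 5184 to 13670 in control lungs, highest in replicate 3 of both groups. Bpifa1, below the filter, was listed at 0 in 4 of the 12 libraries. The part of sampled airway in the levels of Cyp2f4 and Cyp2a3 was not tested.

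**Figure D4:**
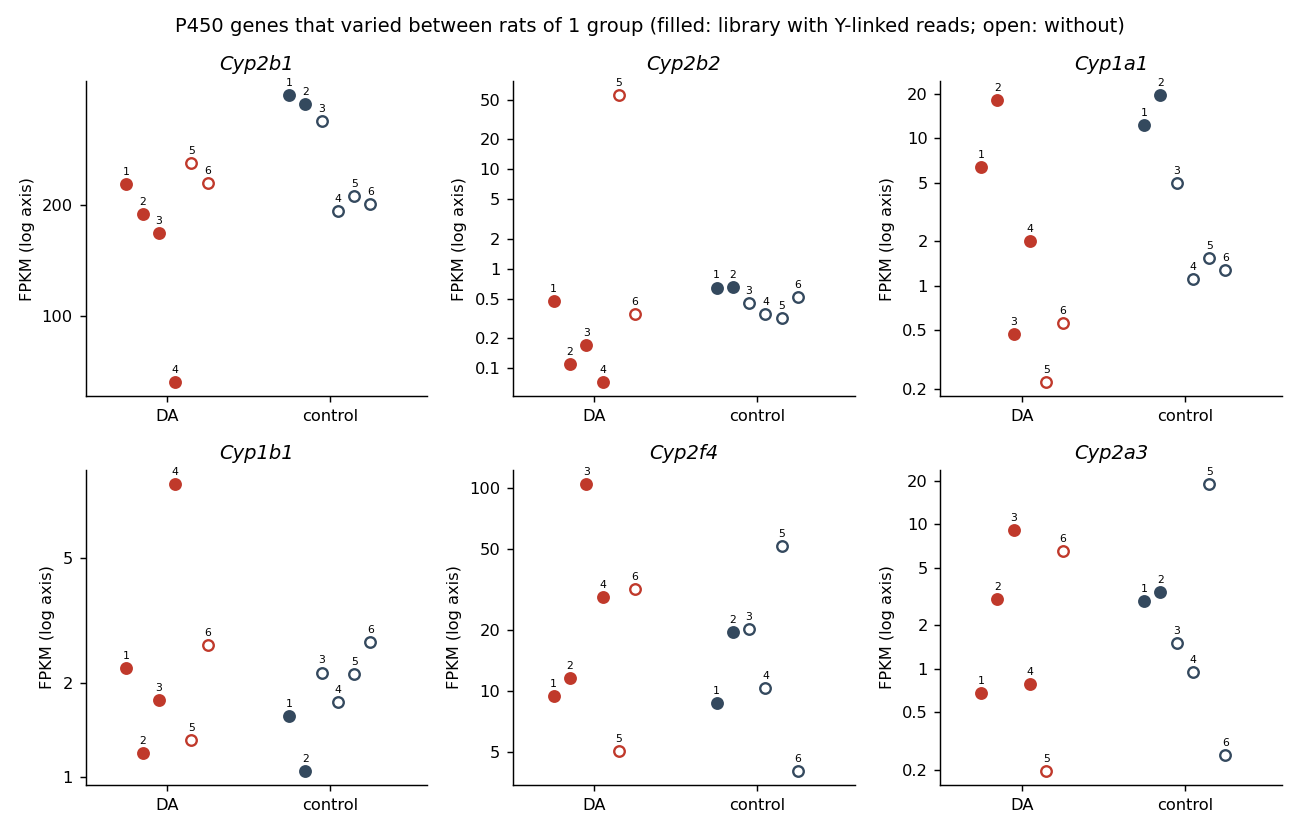
FPKM per library on log axes for 6 P450 genes with wide spread between rats of a group, DA left of control. Points are numbered by replicate, filled with Y-linked reads and open without. Cyp2b2 reaches 55.3 FPKM in DA replicate 5, and Cyp2f4 and Cyp2a3 are highest in DA replicate 3 or control replicate 5.

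**Figure D5:**
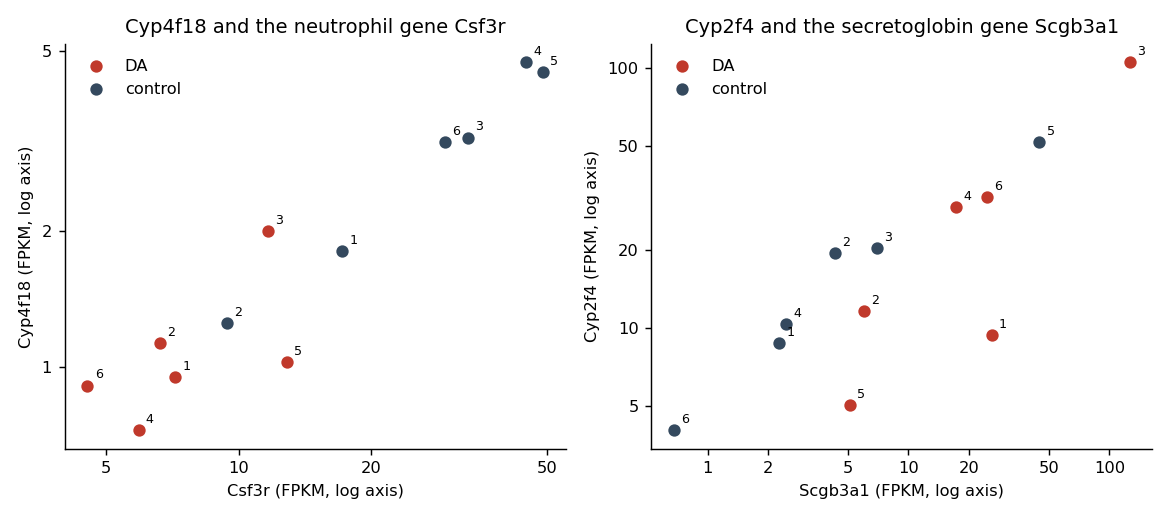
Cyp4f18 against the neutrophil gene Csf3r and Cyp2f4 against the secretoglobin gene Scgb3a1, FPKM on log axes, 1 point per rat numbered by replicate. The marker genes were chosen after values were seen. Control replicates 1 and 2 have the lowest control levels of both Cyp4f18 and Csf3r, and DA replicate 3 has the highest levels of both Cyp2f4 and Scgb3a1.

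The tested AHR targets of the CYP1 family, Cyp1a1 and Cyp1b1, did not pass the test, and Cyp1a2 was below the filter. Cyp1a1, which oxidises polycyclic hydrocarbons, had 6.42, 18.2, 0.475, 2.00, 0.224 and 0.558 FPKM in DA lungs. Control lungs had 12.3, 19.5, 4.94, 1.11, 1.55 and 1.27 FPKM. Replicates 1 and 2 of both groups and control replicate 3 stood above all other libraries. The log2 fold change was -0.53 ± 1.01 (adjusted p = 0.748), so a change of the size seen for Cyp4b1 was within its error. Cyp1b1, shown above with its GCGTG cores, had 8.63 FPKM in DA replicate 4 and 1.19 to 2.64 in the remaining DA lungs, against 1.05 to 2.69 in control lungs (log2 fold change 0.60 ± 0.43, adjusted p = 0.353). Of 4 tested AHR-induced genes of other families, 0 were called higher and 0 lower, against 8.45% and 7.51% of all tested genes. Aldh3a1, Tiparp, Nqo1 and Ahrr were at -1.22, -0.21, 0.34 and 0.17 on the log2 scale (edgeR adjusted p = 0.073, 0.197, 0.341 and 0.828). The AHR repressor gene Ahrr stayed at or below 0.388 FPKM in every library.

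Cyp3a9, the only tested CYP3A gene under the name rule, was at -0.54 ± 0.25 (adjusted p = 0.153). It had 0.960 to 2.42 FPKM in DA lungs and 1.59 to 3.12 in control lungs. The arachidonic acid epoxygenase genes Cyp2c23, Cyp2j4 and Cyp2j10 were at 0.00, -0.02 and 0.53 (adjusted p = 0.999, 0.968 and 0.212). All 6 DA libraries of Cyp2j10 lay above the control mean, 1.72 ± 0.235 FPKM in DA lungs and 1.19 ± 0.564 in control lungs, without passing the test. Cyp2u1, a fatty acid hydroxylase, and Cyp20a1, which has no settled substrate, were at 0.05 ± 0.13 and 0.09 ± 0.11 (adjusted p = 0.822 and 0.571).

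Tested members of sterol, vitamin D and retinoid metabolism under the name rule did not pass the test. Cyp51 of cholesterol synthesis, outside that rule, did pass and is given below. Cyp7b1, which hydroxylates oxysterols, had 2.76, 1.38, 0.850, 3.26, 1.27 and 1.78 FPKM in DA lungs and 1.45, 1.20, 0.815, 0.690, 1.21 and 1.19 in control lungs. DA replicates 1, 4 and 6 stood above all controls, and the log2 fold change was 0.76 ± 0.30 (adjusted p = 0.0993). Cyp27a1, the mitochondrial sterol 27-hydroxylase gene, was at -0.18 ± 0.23 (adjusted p = 0.622), with 5.10 to 16.4 FPKM in DA lungs and 9.78 to 15.1 in control lungs. Cyp39a1 (-0.55 ± 0.24, adjusted p = 0.135) and Cyp46a1 (0.33 ± 0.31, adjusted p = 0.486) act on 24-hydroxycholesterol and on cholesterol. Cyp2r1, a vitamin D 25-hydroxylase gene, was at -0.32 ± 0.36 (adjusted p = 0.567).

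Cyp26b1, which clears retinoic acid, had 9.84, 7.70, 11.4, 1.55, 9.22 and 2.99 FPKM in DA lungs and 4.74, 5.96, 4.36, 13.3, 12.8 and 5.04 FPKM in control lungs. DA replicates 4 and 6 were lowest and control replicates 4 and 5 highest. The log2 fold change was -0.12 ± 0.46 (adjusted p = 0.885), and its sign changed when DA replicate 4 or 6 or control replicate 4 or 5 was left out, and among libraries carrying Y-linked reads.

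The electron donor gene fell as well. Por had 19.7, 19.5, 26.9, 13.01, 21.0 and 18.2 FPKM in DA lungs and 21.6, 30.5, 42.0, 36.8, 39.9 and 22.4 FPKM in control lungs. Only DA replicate 3 reached above the lowest control libraries, replicates 1 and 6. Por had a log2 fold change of -0.71 ± 0.21 (adjusted p = 0.0371). The call was lost without DA replicate 1, 5 or 6 and without control replicate 2, 3, 4 or 5, at adjusted p between 0.0502 and 0.0816. The Y-linked term (adjusted p = 0.107) ended it too, as did fits of libraries lacking (0.0707) or carrying (0.698) Y-linked reads. Of 10 tested redox partners Por alone was called, and their median was 0.15 on the log2 scale. Among all tested genes 7.51% were lower and 8.45% higher. The mitochondrial donors Fdx1 and Fdxr were at 0.17 and 0.43 (adjusted p = 0.499 and 0.285).

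Among 11 tested xenobiotic receptors and partners, 2 fell and 0 rose, with a median of -0.25. The shares over all tested genes were 7.51% lower and 8.45% higher. Rxra, the shared partner of the drug-sensing receptors, fell by 0.80 on the log2 scale (adjusted p = 0.00292). Its mean was 7.40 ± 1.13 FPKM in DA lungs, against 12.8 ± 1.06 in control lungs. Ahr itself was at 16.7 to 46.6 FPKM in DA lungs and 21.1 to 33.2 in control lungs (adjusted p = 0.59). Pregnane X receptor (Nr1i2) was below the filter.

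Of 2 tested P450 enzymes with other names, Cyp51 of cholesterol synthesis rose by 1.05 ± 0.19 on the log2 scale (adjusted p = 0.00572), to 39.4 ± 9.53 FPKM in DA lungs, against 18.9 ± 4.39 in control lungs. Thromboxane synthase (Tbxas1) was at -0.51 (adjusted p = 0.0616). Of 14 tested retinoid genes 2 rose and 3 fell, where 8.45% of all tested genes rose and 7.51% fell. The same shares apply to the lists that follow. The retinal reductase gene Dhrs3 fell by 0.63 on the log2 scale (adjusted p = 0.0149). Of 10 tested conjugating and epoxide hydrolase genes 0 were called by edgeR. Of 12 tested haem genes 2 rose (Alad, adjusted p = 0.024, and Fech, adjusted p = 0.0414) and 0 fell. Of 7 tested oxysterol and vitamin D genes only Abca1, a cholesterol exporter gene, was called. Abca1 fell by 1.10 on the log2 scale (adjusted p = 0.00572). Of 13 tested eicosanoid genes 1 rose (Ptgs2, adjusted p = 0.0204) and 1 fell (Alox5ap, adjusted p = 0.0287). The Y-linked term ended the calls of Ptgs2 (adjusted p = 0.0767) and Alox5ap (adjusted p = 0.0856). Ptgs2 was also not called by limma on log2(FPKM + 0.5) (adjusted p = 0.0527) or log2(FPKM + 1) (0.0709), or among libraries lacking Y-linked reads (0.0814). DESeq2 gave no adjusted p for Ptgs2. Without DA replicate 4 Ptgs2 was still called (edgeR adjusted p = 0.00393), at a log2 fold change of 1.19, against 2.13 with it. Alad was not called without DA replicate 1 or 6 or control replicate 3, 4, 5 or 6 (adjusted p of 0.0508 to 0.0572), and Alox5ap not without DA replicate 1 or 6 or control replicate 3, 4 or 5 (adjusted p of 0.0519 to 0.0652). Abca1 was not called among libraries lacking Y-linked reads (adjusted p = 0.106).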

How the data were processed

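RNA of 12 rat lungs was sequenced on an Illumina NovaSeq instrument, per the labels' protocols. The submitters' processing notes name HISAT2 2.2.1, HTSeq 2.0.2 and the rat build mRatBN7.2. Strand setting and annotation release are not given in the sources used here. The authors deposited raw read counts per Ensembl gene for each library. The authors also deposited FPKM values, which equal the count scaled by gene length and library total (largest relative deviation 5e-15). Levels are the deposited FPKM, since these allow genes to be compared per length.

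For all 23096 genes the counts went into edgeR 4.0.16 (R 4.3.3): filterByExpr (14517 genes kept), TMM, and a quasi-likelihood test with group as the only term, Benjamini-Hochberg adjusted over all tested genes, threshold 0.05. SE is the log2 fold change over the root of F. DESeq2 1.42.0, limma 3.58.1 on log2(FPKM + 0.5, 0.1 or 1), other scalings, no filter, a replicate block, Y-linked reads and leaving out each library were alternatives. The fits were tested on simulated data. The rule for named genes asked for values per library of called members and of the 10 most abundant by mean FPKM. Of those 10, Cyp2s1, Cyp27a1 and Cyp4f6 are shown as ranges only. From each pathway list the rule allowed values for at most 3 called genes by adjusted p. Any other gene was chosen after its values were seen. The P450 members and all lists were chosen with earlier results of these data known, and neutrophil markers were added after values were seen. Start regions are from RefSeq (GRCr8), which matched 58 of 71 names, and gene order from the RefSeq table of the same assembly, which matched all 71. Some genes of the pathway lists are not reported here.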

Additional observations from a re-analysis of the deposited data

Results flagged for a closer look

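In 62 groups of 6 values (31 tested P450 genes, DA and control), 9 had a highest library set apart from the rest of its group by more than 0.625 of the group's range. Both ends of each group were searched. Chance flags about 1 group in 20 where values are normally distributed, which FPKM need not be. Cyp2f4 stood at 105 FPKM in DA replicate 3 (next 31.8) and at 51.9 FPKM in control replicate 5 (next 20.3). Cyp2a3 stood at 18.9 FPKM in control replicate 5 (next 3.40). Cyp1a1 stood at 18.2 FPKM in DA replicate 2 (next 6.42). Cyp2b2 stood at 55.3 FPKM in DA replicate 5 (next 0.468). DA replicate 4 was set apart for Cyp1b1 (8.63 FPKM, next 2.64), Cyp2r1 (0.741 FPKM, next 0.397) and Cyp2d3 (0.996 FPKM, next 0.393). Cyp4f18 stood at 1.99 FPKM in DA replicate 3 (next 1.13).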

How the results depend on the processing

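The same 4 P450 genes were called lower with RLE factors, upper quartile scaling, no filter, limma at each offset and the replicate block, and by DESeq2, which added Cyp4v3. Over all genes those scalings, no filter and limma at offsets of 0.1 and 1 called 5.03% to 7.7% lower and 5.18% to 11.4% higher. The count was 2 with Y-linked reads as a term, 2 within the libraries without them and 0 within those with them, where 0 genes of any kind were called. Cyp2b2 made the count of higher genes 1 within the libraries without Y-linked reads. Leaving out 1 library gave 3 to 5 lower and 0 to 1 higher, where 3.96% to 10% of all tested genes were lower and 3.96% to 10.6% higher. Within the libraries without Y-linked reads the log2 fold change changed sign for Cyp2b1 (0.0604), Cyp2f4 (-0.19), Cyp27a1 (0.30) and Cyp4f6 (0.14), and within those with them for Cyp26b1 (0.52) and Cyp2b2 (-1.64). Without 1 library it spanned -0.15 to 1.36 for Cyp2f4, -0.31 to 0.11 for Cyp26b1 and -1.04 to 4.49 for Cyp2b2. Cyp2d3 changed sign in limma with an offset of 0.1 (-0.014), with the replicate block (-0.046) and among libraries lacking Y-linked reads (-0.26), and spanned -0.30 (without DA replicate 4) to 0.17 without 1 library. None of these reversed values was called, and the cause was not tested.

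With the replicate number as a block, 4 genes were lower (background 5.21%) and 0 higher (4.66%), Cyp2b2 was at -0.16, and neither Por (adjusted p = 0.0521) nor Ptgs2 (adjusted p = 0.0642) was called. The labels share only a number: same-numbered libraries' deviations correlated at 0.11, 0.18, 0.30, 0.04, -0.26 and 0.00 for replicates 1 to 6, and replicates 1 to 3 of DA correlated best with their own number. Members below the filter were not tested.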
